A study of Canis lupus familiaris with 9 samples.

Results

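Dog macrophages polarized with IL-4 and IL-13 (M2) were compared directly with dog macrophages polarized with IFN-γ (M1), gene by gene. The comparison covered every gene of the deposited table with a mean of at least 50 normalized counts in M1 or M2, which was 10737 of 12696 genes. Of these, 10173 reached that minimum in both groups, 184 only in M1 and 380 only in M2, and 9560 carried a gene name. At the edge of this minimum, SERINC2 and RHOD reached 50.1 in M2 and were kept, while LZTS3 with 49.99 in M2 and CD300E with 49.98 in M1 were not.

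The cells were monocyte-derived macrophages from the blood of 3 healthy beagles, spayed females of about 2 years. All cultures were kept for 7 days in M-CSF at 10 ng/mL, and this was also the only cytokine of the resting M0 group. IFN-γ at 20 ng/mL was then added to M1 cultures for 24 h, and M2 cultures were given 20 ng/mL of IL-4 together with 20 ng/mL of IL-13 for the same time. RNA was sequenced from 3 samples a group, and the labels repeat the same 3 sample descriptions in each group, so that M1 and M2 may hold the same dogs.

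IFN-γ signals through its receptor and the kinases JAK1 and JAK2, and induces antigen processing, guanylate binding proteins, tryptophan breakdown and chemokines that attract T cells. IL-4 and IL-13 share the receptor chain IL4R and signal mainly through STAT6, and in human and mouse macrophages they induce the mannose receptor, CD23, transglutaminase and matrix and growth factor genes, a state called alternative activation. Mouse markers of this state are not all shared by human macrophages.

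The values are the authors' group means of depth-normalized counts (mean normalized counts), 1 value per gene and group. Values per sample were not analysed here, so no spread between the 3 samples could be given, no test was run, and no difference below carries a p-value. In whole cultures such as these, fewer cells of a type and less RNA per cell cannot be told apart. A gene was called past the fold where the log2 ratio of the M2 mean over the M1 mean, each plus 1, was at least 1.5 in size, which is 2.83-fold. The log2 values below are these ratios unless another pair of groups is named, positive where M2 was higher and negative where M1 was higher. Summed over the table, the means came to 28039918 in M1 and 27312028 in M2, against 26728643 in M0. The median log2 ratio over all 10737 genes was -0.00.

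Most genes differed little between the polarized states. The log2 ratio lay between -0.27 and 0.29 for the central 50% of genes, and 87.3% of genes (9377) lay within 1 of 0. Past the fold, 421 genes were higher in M2, which is 3.92% of the genes compared, and 326 were higher in M1, which is 3.04%. Each count of list members past the fold below is to be read beside these shares over all genes. Genes higher in M2 had a median log2 ratio of 2.25 and genes higher in M1 one of -2.18. The plot of M1 against M2 means shows both groups of genes on either side of the line of equal means, from low to very high levels.

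**Figure D1:**
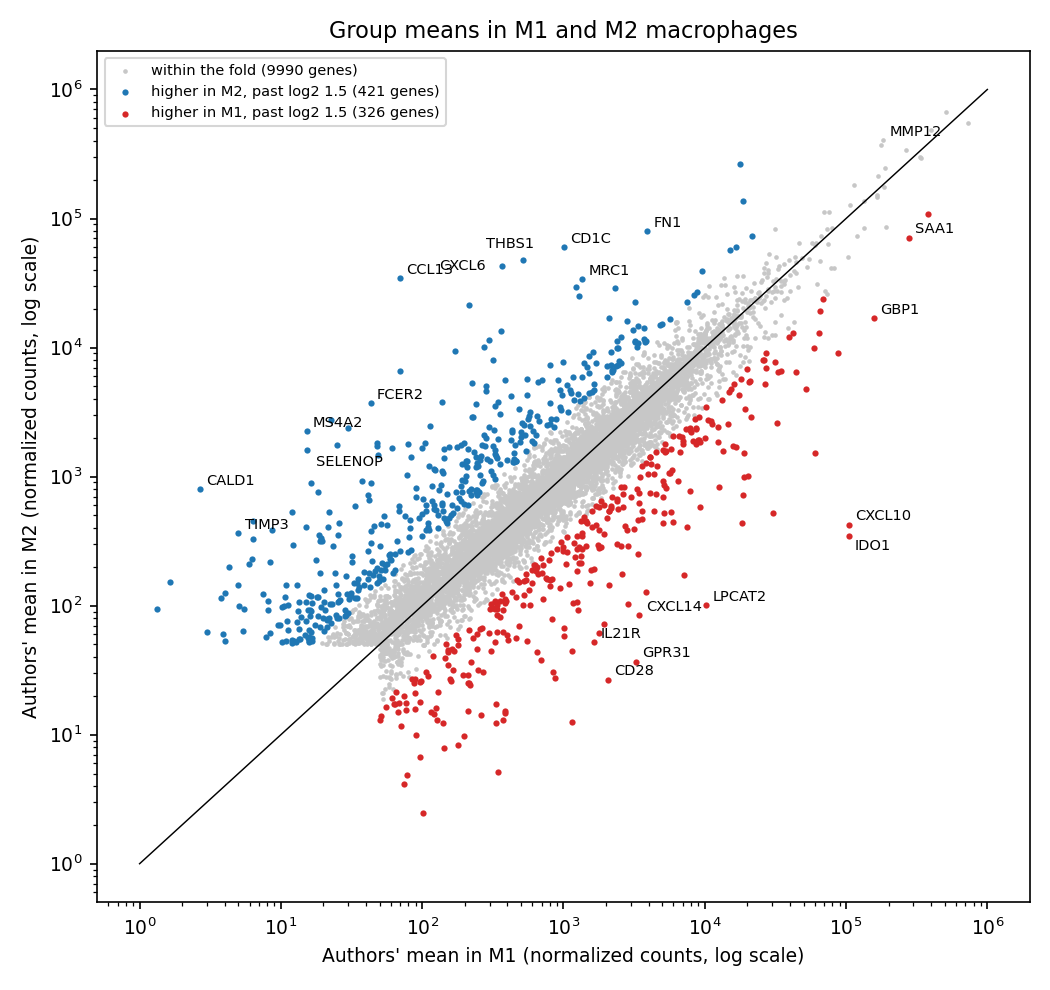
Each point is 1 of the 10737 genes, with the authors' mean in M1 on the x axis and in M2 on the y axis, both in normalized counts on log scales, and the line marks equal means. Blue points (421 genes) were higher in M2 and red points (326 genes) higher in M1 past a log2 ratio of 1.5, and grey points lay within it.

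The M0 means place each gene relative to the unpolarized cells, which serve as the common background of both groups. Among the 421 genes higher in M2, 232 were lower in M1 than in M0 past the same fold, and 125 were higher in M2 than in M0 past it. Their median log2 ratio to M0 was -1.60 for M1 and 0.81 for M2. Among the 326 genes higher in M1, 213 were higher in M1 than in M0 past the fold, and 43 were lower in M2 than in M0 past it. Their median log2 ratio to M0 was 1.81 for M1 and -0.41 for M2. Over all 10737 genes, 2.8% were higher and 3.71% lower in M1 than in M0 past the fold, and 1.56% were higher and 1.15% lower in M2 than in M0. The M1 and M2 ratios to M0 share the same M0 samples. Their difference on the log2 scale is the M2 over M1 ratio that picked the 421 and 326 genes. The M1 and M2 medians of each set therefore had to lie apart in this direction, and they are given side by side only.

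Tryptophan breakdown and a T cell chemokine stood at the head of the genes higher in M1. IDO1, the enzyme that opens the kynurenine pathway of tryptophan breakdown, had means of 159 in M0, 104559 in M1 and 348 in M2, with a log2 ratio of -8.23. CXCL10, a chemokine that recruits T cells through CXCR3, had means of 318 in M0, 105296 in M1 and 425 in M2 (-7.95). Both were low in M0 and M2 alike, and both were among the 10 genes with the largest excess of normalized counts in M1.

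LPCAT2, an acyltransferase that makes platelet activating factor, followed with 461 in M0, 10239 in M1 and 101 in M2 (-6.64). GPR31, a G protein-coupled receptor, had 47.1 in M0, 3276 in M1 and 36.8 in M2 (-6.44), and NEURL3, an E3 ubiquitin ligase, had 137 in M0, 7141 in M1 and 172 in M2 (-5.37). IFGGB2, for which the table gives no description, had 418 in M0, 30344 in M1 and 519 in M2 (-5.87). In all of these except LPCAT2 the M2 mean stayed close to the M0 mean, while LPCAT2 was also lower in M2 than in M0.

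The calcium-binding membrane proteins MCTP1 and MCTP2 were both higher in M1. MCTP1 had means of 85.1 in M0, 1144 in M1 and 12.5 in M2 (-6.40), and MCTP2 had 156 in M0, 876 in M1 and 27.7 in M2 (-4.93). CST7, an inhibitor of lysosomal cathepsins, had 91.7 in M0, 1772 in M1 and 61.3 in M2 (-4.83). IGSF10, an immunoglobulin superfamily gene, was low outside M1, with 4.97 in M0, 345 in M1 and 5.15 in M2 (-5.81). CXCL14, a chemokine of epithelia and myeloid cells, had the opposite layout, since M0 and M1 were close to each other and M2 stood apart, at 3102 in M0, 3451 in M1 and 84.9 in M2 (-5.33).

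The genes with the highest ratios toward M2 began with a chemokine of the monocyte chemoattractant family. CCL13, a ligand of CCR2 and CCR3, had means of 4282 in M0, 69.3 in M1 and 34599 in M2, and its log2 ratio of 8.94 was the largest of all genes in either direction. CXCL6, a neutrophil-attracting chemokine, had 35096 in M0, 366 in M1 and 42909 in M2 (6.87), and THBS1, the matrix glycoprotein thrombospondin 1, had 73173 in M0, 519.6 in M1 and 47559.8 in M2 (6.51). SELENOP, a secreted selenium carrier, had 1605 in M0, 15.4 in M1 and 1614 in M2 (6.62). CCL13 was above M0 in M2 and below it in M1, whereas for CXCL6, THBS1 and SELENOP the M2 mean was much closer to M0 than the M1 mean, which was far below it.

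HBEGF, an EGF receptor ligand, had 348 in M0, 22.6 in M1 and 2755 in M2 (6.87). CALD1, an actin-binding protein, had 33.7 in M0, 2.67 in M1 and 804 in M2 (7.78), with so few counts in M1 that its ratio depends on the pseudocount. SCN2B, a sodium channel subunit also known as an adhesion molecule, had 2303 in M0, 215 in M1 and 21367.5 in M2 (6.63). For these the M2 mean was above M0 and the M1 mean below it. NPNT, an integrin ligand of basement membranes, with 956 in M0, 69.2 in M1 and 6564 in M2 (6.55), and FLRT2, a membrane protein of cell guidance, with 284 in M0, 29.9 in M1 and 2366 in M2 (6.26), had the same layout.

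A smaller set stood high in M2 alone. FCER2, the low-affinity IgE receptor CD23, had 51.5 in M0, 43.3 in M1 and 3735 in M2 (6.40). SLAMF6, a SLAM family receptor of lymphocytes, had 30.2 in M0, 24.8 in M1 and 1767 in M2 (6.10). TIMP3, an inhibitor of matrix metalloproteinases, had 5.4 in M0, 4.99 in M1 and 363 in M2 (5.92). Their M0 and M1 means were close to each other. CD1C, which presents lipid antigens to T cells, reached 60136 in M2 from 2556.5 in M0 and 1001 in M1 (5.91).

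**Figure D2:**
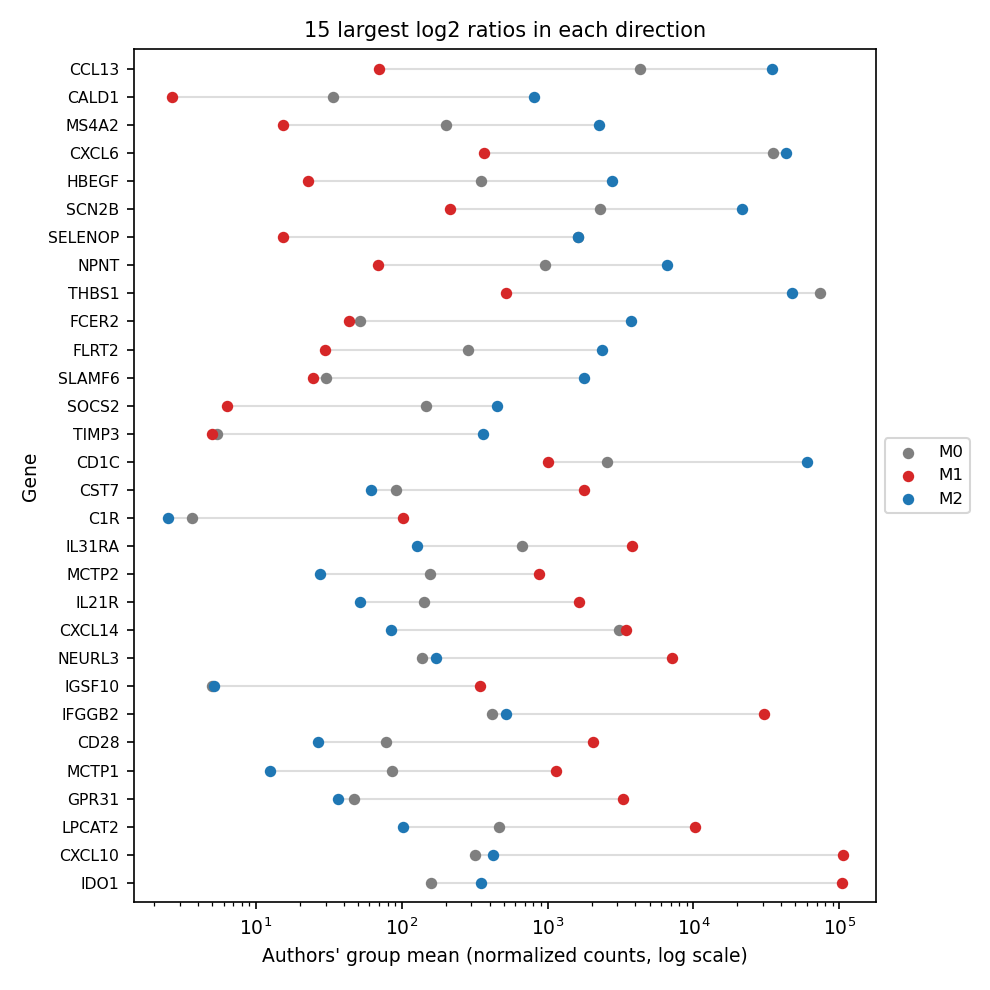
The authors' mean in M0 (grey), M1 (red) and M2 (blue) is drawn for the 15 genes of each direction that had the largest ratios, in normalized counts on a log scale, 1 gene per line from IDO1 at the bottom to CCL13 at the top. In CXCL6, SELENOP and THBS1 the M0 point lies near M2, in IDO1 and CXCL10 it lies near M2 as well with M1 far to the right, and in CXCL14 it lies near M1.

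By size of the difference in normalized counts, other genes led, and many of them had ratios within the fold. The largest excess in M1 among named genes was in SAA1, an acute phase protein, with 51559 in M0, 279372 in M1 and 71199 in M2 (-1.97). SMPDL3A, an enzyme related to acid sphingomyelinase, followed with 770341 in M0, 723958 in M1 and 546249 in M2 (-0.41) and was among the most abundant genes in every group. The large excess in M1 of SPP1 (osteopontin, -1.17), CTSD (cathepsin D, -1.02) and MPEG1 (the pore-forming perforin 2, -0.67) rested on ratios within the fold.

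The largest excess in M2 among named genes was in MMP12, the macrophage elastase, with 296143 in M0, 182491 in M1 and 405229 in M2 (1.15), and in MMP9, a gelatinase, with 261762 in M0, 176164 in M1 and 370943 in M2 (1.07). MMP14, a membrane-bound collagenase, had 153931 in M0, 114109 in M1 and 183444 in M2 (0.68). FTH1, the ferritin heavy chain, had 857506 in M0, 506551 in M1 and 665535 in M2 (0.39) and was highest in M0. BPI, a bactericidal protein, had 232431 in M0, 187502 in M1 and 247427 in M2 (0.40). All of these lay within the fold, unlike FN1, CXCL8 and CD1C, which were also among the 10 largest differences.

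Genes without a name made up 31 of the genes higher in M2 and 31 of those higher in M1 past the fold, and 1 in each direction had a larger difference than any named gene. ENSCAFG00000032731 had 26214.5 in M0, 17627.5 in M1 and 263582 in M2 (3.90), and ENSCAFG00000015206 had 114388 in M0, 377406 in M1 and 108422 in M2 (-1.80). By ratio, ENSCAFG00000000497 was the lowest of the unnamed genes, with 399 in M0, 18405 in M1 and 434 in M2 (-5.40). The identifiers could not be paired with a symbol here, so no role is given.

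The IFN-γ response list had the lowest median of the 31 pathway lists. It holds direct and well known targets of IFN-γ, and 22 of its 41 genes were higher in M1 past the fold and 0 in M2, against 3.04% and 3.92% of all genes. Its median log2 ratio was -1.61, against -0.00 over all genes, and 38 of 41 genes were below 0. GBP1, a guanylate binding protein of defence against intracellular pathogens, had 6382 in M0, 157690 in M1 and 17028 in M2 (-3.21), and its relative GBP6 had 4223 in M0, 64030.2 in M1 and 12964 in M2 (-2.30). IL15RA, which presents IL-15 to lymphocytes, had 249 in M0, 2881 in M1 and 289 in M2 (-3.31), and IL15 itself had 223 in M0, 1325 in M1 and 243 in M2 (-2.44). How reads shared by near-identical copies were counted is not given in the sources used here, so the levels of single GBP, DLA, IFIT and CD1 genes are uncertain.

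Some of these genes were above M0 in M2 as well. GBP1, GBP6 and WARS1, the tryptophanyl-tRNA synthetase, were among them, with WARS1 at 3881 in M0, 88262 in M1 and 9026 in M2 (-3.29). The 3 genes of the list above 0 were ICAM1 (0.03), CIITA (0.57) and FCGR1A (0.83). CIITA, the master regulator of MHC class II transcription, had 4989 in M0, 10373 in M1 and 15448 in M2. FCGR1A, the high-affinity IgG receptor CD64, had 7310.3 in M0, 4021 in M1 and 7141 in M2, so that M1 had the lowest mean of the 3 groups.

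Genes stimulated by type I interferon leaned toward M1 as well, by less. In this list 6 of 25 genes were higher in M1 past the fold and 0 in M2, with a median of -1.01. ISG20, an antiviral exonuclease, had 698 in M0, 3575 in M1 and 467 in M2 (-2.93), and RSAD2 (viperin) had 1237 in M0, 4102 in M1 and 751 in M2 (-2.45). OAS1, a sensor of viral RNA, lay on the other side with 5579 in M0, 5227 in M1 and 7966 in M2 (0.61), as did TRIM25 (0.47), a ligase of the RIG-I pathway.

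**Figure D3:**
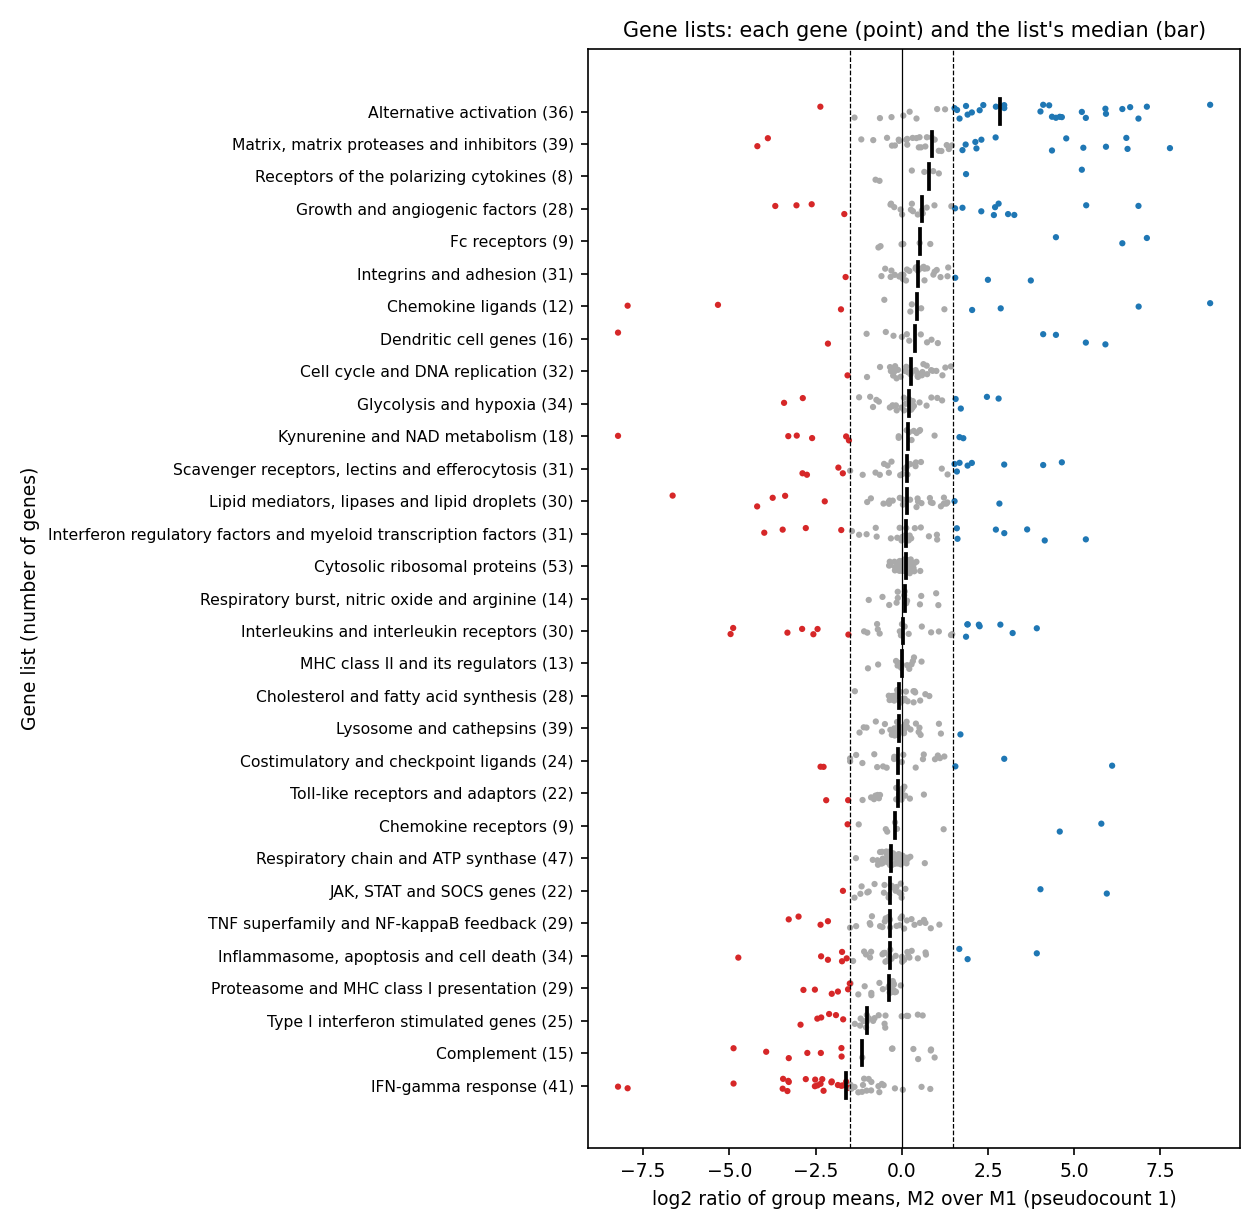
Each point is the log2 ratio of M2 over M1 means of 1 gene (pseudocount 1), for the 31 gene lists ordered by their median (black bar), with the number of genes in brackets. Dashed lines mark -1.5 and 1.5, red points lie past the fold toward M1 and blue points toward M2. The IFN-gamma response list has the lowest median (-1.61) and the alternative activation list the highest (2.85), and the ribosomal protein list is the narrowest.

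Genes of peptide presentation by MHC class I all had their higher mean in M1, whereas those of MHC class II were close to equal in both groups. All 29 genes of the proteasome and MHC class I list were below 0, 6 of them past the fold, with a median of -0.37. NLRC5, the transactivator of MHC class I genes, had 2807 in M0, 14621 in M1 and 2551 in M2 (-2.52), and ERAP2, a peptidase that trims peptides for loading, had 359 in M0, 2811 in M1 and 389 in M2 (-2.85). The proteasome activator genes PSME2 (-2.03) and PSME1 (-1.56) and the immunoproteasome subunit PSMB10 (-1.85) were past the fold, while the constitutive subunits PSMB5 (-0.30), PSMB6 (-0.30) and PSMB7 (-0.24) were not. The class I heavy chain genes DLA-64 (-0.17) and DLA-79 (-0.28) differed little, and both groups were above M0.

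For MHC class II, 0 of 13 genes were past the fold in either direction and the median was -0.00. DLA-DRA, a class II alpha chain, had 237556 in M0, 266856 in M1 and 341459 in M2 (0.36), and CD74, the invariant chain, had 384244 in M0, 401753 in M1 and 489033 in M2 (0.28). DLA-DMA, a chaperone of peptide loading, went the other way with 28158 in M0, 81969 in M1 and 41589 in M2 (-0.98). MARCHF1, a ligase that removes class II molecules from the surface, had 4232 in M0, 4468 in M1 and 2781 in M2 (-0.68).

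Complement genes past the fold were all higher in M1. Of 15 genes, 7 were higher in M1 past the fold and 0 in M2, with a median of -1.14. The 7 were the C1q chains C1QA (-1.75), C1QB (-3.93) and C1QC (-1.74), the protease C1R (-4.88), the components C2 (-2.35) and C3 (-2.74), and the C1 inhibitor SERPING1 (-3.28). C1QB had 735 in M0, 12574 in M1 and 824 in M2, and C1R, at the low end of the table, had 3.63 in M0, 102 in M1 and 2.49 in M2. The receptor genes lay within the fold, C3AR1 at -0.27 and C5AR1 at 0.84. ITGAM, a chain of complement receptor CR3, had 46435 in M0, 18516 in M1 and 35883 in M2 (0.95), and CFP, properdin, a positive regulator of the alternative pathway, had 1827 in M0, 884 in M1 and 1594 in M2 (0.85).

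In the kynurenine and NAD list, the median (0.18) and the mean (-0.76) had opposite signs, since a few genes were far higher in M1. Past the fold, 6 of 18 genes were higher in M1 and 2 in M2. Downstream of IDO1, KYNU (kynureninase) was higher in M1 (-1.53), whereas KMO (-0.09) and HAAO (-0.09) differed little. AHR, a transcription factor that binds kynurenine, had 5748 in M0, 3219.7 in M1 and 11104 in M2 (1.79), and KYAT1, a kynurenine aminotransferase, had 215 in M0, 84 in M1 and 270.2 in M2 (1.67). Both were lower in M1 than in either other group.

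In the signalling chain of the polarizing cytokines, few genes were past the fold. Among 22 JAK, STAT and SOCS genes, 2 were higher in M2 past the fold. STAT6, the transducer of IL-4, had 4966 in M0, 6245 in M1 and 4418 in M2 (-0.50). STAT3, which acts downstream of IL-10 and IL-6, had 5533 in M0, 12600.1 in M1 and 5488 in M2 (-1.20).

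The suppressors of cytokine signalling went separate ways. SOCS1 had 162 in M0, 4463 in M1 and 1727 in M2 (-1.37), above M0 in both polarized groups, and its log2 ratio lay just within the fold. CISH had 860.2 in M0, 281 in M1 and 4579 in M2 (4.02), and SOCS2 had 147 in M0, 6.31 in M1 and 449.8 in M2 (5.95), both above M0 in M2 and below it in M1. CISH and SOCS2 are known as STAT5 targets, and the STAT5A mean was 3671 in M1 and 1889 in M2 (-0.96). The part of STAT5 in the CISH and SOCS2 values was not tested.

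Of 8 receptor genes for the polarizing and growth cytokines, 2 were higher in M2 past the fold and 0 in M1. IL13RA2, the decoy receptor for IL-13, had 129.8 in M0, 47.8 in M1 and 1821 in M2 (5.22). CSF2RB, the common beta chain of the receptors for GM-CSF, IL-3 and IL-5, had 30581.5 in M0, 16624 in M1 and 60565 in M2 (1.87), and the alpha chain CSF2RA had 1769.7 in M0, 3258 in M1 and 1925 in M2 (-0.76). IL4R was higher in M1 within the fold, with 6228 in M0, 11029.8 in M1 and 7058 in M2 (-0.64), and IFNGR1, the ligand-binding chain of the IFN-γ receptor, was lower in both polarized groups than in M0, with 8970.0 in M0, 3105 in M1 and 4889 in M2 (0.65).

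Among 31 interferon regulatory factors and myeloid transcription factors, 7 were higher in M2 and 4 in M1 past the fold, and the median was 0.13. IRF4, a factor tied to alternative activation in mouse macrophages, had 192 in M0, 12.1 in M1 and 528 in M2 (5.34), and MAF had 2556 in M0, 282 in M1 and 5010.1 in M2 (4.15). EGR2 had 974 in M0, 989 in M1 and 7773 in M2 (2.97) and KLF4 had 596 in M0, 265 in M1 and 1765 in M2 (2.73). All 4 were higher in M2, and only EGR2 among them had nearly equal means in M0 and M1.

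On the M1 side, NR1H3, the oxysterol receptor LXR-alpha, had 1128 in M0, 9277 in M1 and 585 in M2 (-3.99). BATF2 had 438 in M0, 5782 in M1 and 527 in M2 (-3.45), and IRF1, an early target of IFN-γ, had 3804 in M0, 44367.5 in M1 and 6449 in M2 (-2.78). SPI1 (PU.1), a factor that defines the macrophage lineage, differed by little (0.13). PPARG, a lipid-sensing receptor that IL-4 induces in mouse macrophages, had 346 in M0, 284 in M1 and 333 in M2 (0.23).

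**Figure D4:**
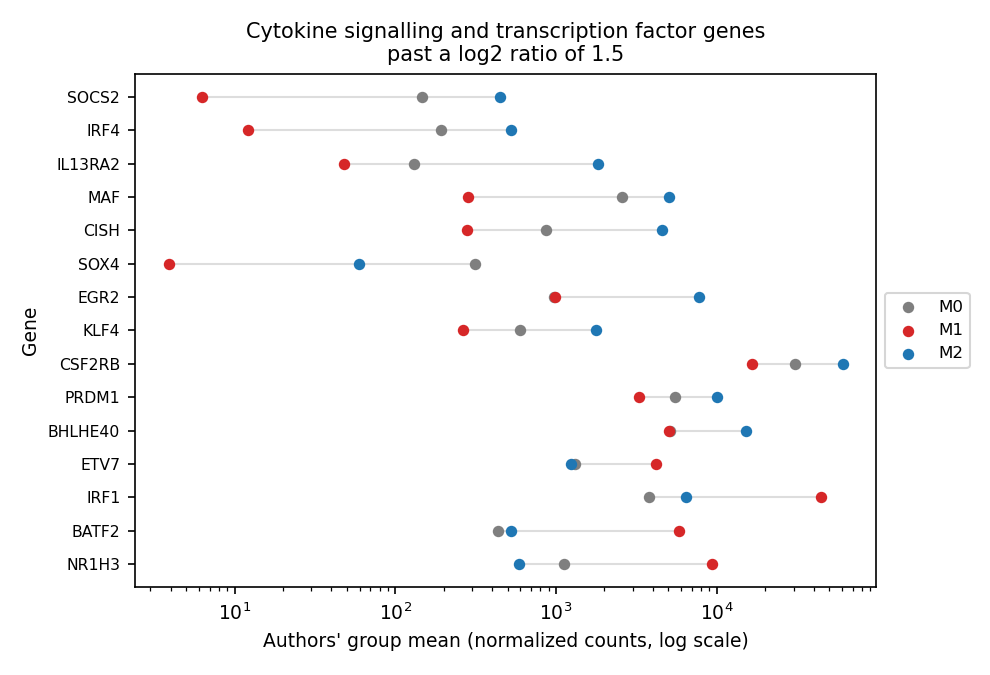
The authors' mean in M0 (grey), M1 (red) and M2 (blue) is drawn for 15 cytokine signalling and transcription factor genes past a log2 ratio of 1.5, in normalized counts on a log scale, ordered by ratio from NR1H3 to SOCS2. The lower 4 genes (NR1H3, BATF2, IRF1 and ETV7) have their highest mean in M1, and SOX4 alone has its highest mean in M0.

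The alternative activation list had the highest median of the 31 pathway lists. It was drawn up with earlier results of these samples known and overlaps the genes the study named, so its direction is no independent evidence. Past the fold, 27 of its 36 genes were higher in M2 and 1 in M1, with a median of 2.85. MRC1, the mannose receptor CD206, had 7046 in M0, 1355 in M1 and 33893 in M2 (4.64). FN1, fibronectin, had 23042 in M0, 3921 in M1 and 80386 in M2 (4.36), and F13A1, the A chain of coagulation factor XIII, had 17046 in M0, 1294 in M1 and 25069.9 in M2 (4.28).

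The gene of this list that went the other way was TGM2, transglutaminase 2, with 2383 in M0, 32911 in M1 and 6412 in M2 (-2.36), which was above M0 in both groups and higher in M1. CHI3L1, a chitinase-like protein, had 33419 in M0, 45474 in M1 and 29348.5 in M2 (-0.63). ALOX15, a lipoxygenase that IL-4 induces in human monocytes, had 152 in M0, 96.2 in M1 and 129.8 in M2 (0.43) and was not above M0 in M2.

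Lectins and scavenger receptors were mixed, with 8 of 31 higher in M2 and 4 in M1 past the fold and a median of 0.15. CD209, the lectin DC-SIGN, had 90 in M0, 710.0 in M1 and 5576 in M2 (2.97), above M0 in both groups. CLEC10A, a galactose-type lectin, had 406 in M0, 41.2 in M1 and 724 in M2 (4.10). CD163, the hemoglobin scavenger receptor, had 47679 in M0, 9559 in M1 and 39147 in M2 (2.03), so that the difference lay in a low M1 mean, and CD36, a scavenger of oxidized lipoproteins, had 14871 in M0, 3784 in M1 and 10944 in M2 (1.53). AXL, a receptor for apoptotic cells, had 137 in M0, 1254 in M1 and 186 in M2 (-2.75), and CLEC12A, an inhibitory lectin, had 153 in M0, 116 in M1 and 14.9 in M2 (-2.88).

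IgE receptors accounted for all of the Fc receptor genes past the fold, 3 of 9 higher in M2 and 0 in M1. FCER1A, the ligand-binding chain of the high-affinity receptor, had 342 in M0, 80 in M1 and 1796 in M2 (4.47), and MS4A2, its beta chain, had 200.2 in M0, 15.2 in M1 and 2240.1 in M2 (7.11). The common gamma chain FCER1G (0.05) and the neonatal Fc receptor FCGRT (-0.01) had nearly equal means in M1 and M2. FCER1A, MS4A2 and the factor GATA2, with 21.3 in M0, 5 in M1 and 144 in M2 (4.60), are also markers of mast cells and basophils. The summed mean of the 5 such markers analysed here was 134 in M1 and 4234 in M2, against 633 in M0. The other 2, HPGDS (5.24 in M1 and 12.2 in M2) and EPX (28.3 and 41.3), were below 50 in both groups. The part of such cells in these values was not tested.

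Chemokine ligands were split, with 4 of 12 higher in M2 past the fold and 3 in M1. Besides CCL13 and CXCL6, the neutrophil chemokine CXCL8 was higher in M2, with 81725 in M0, 18722 in M1 and 136927 in M2 (2.87), and so was CCL3, a macrophage inflammatory protein, with 3755 in M0, 2419 in M1 and 9962 in M2 (2.04). CCL8, a monocyte attractant, was higher in M1, with 8618 in M0, 64883 in M1 and 19138 in M2 (-1.76). CCL5, a T cell and monocyte attractant, lay within the fold at -0.51.

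Among 9 chemokine receptors, 2 were higher in M2 and 1 in M1 past the fold, against 3.92% and 3.04% of all genes. CXCR4, the receptor of CXCL12, had 28349 in M0, 1224 in M1 and 29362 in M2 (4.58), and ACKR3, a scavenger of the same ligand, had 4612 in M0, 169.8 in M1 and 9441 in M2 (5.79). Both were low in M1 alone. CCRL2 (-1.57), which binds chemerin, was higher in M1.

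The interleukin genes included an IL-1 set that was higher in M2, while IL15, IL15RA, IL21R and IL7R, which belong to receptors with the common gamma chain, were higher in M1. Past the fold, 8 of 30 genes were higher in M2 and 7 in M1. IL1B had 2207 in M0, 239.7 in M1 and 3635 in M2 (3.92), IL1A had 345 in M0, 181 in M1 and 685 in M2 (1.91), and the receptor antagonist IL1RN had 4954 in M0, 1061 in M1 and 5084 in M2 (2.26). The signalling receptor IL1R1 had 558 in M0, 121 in M1 and 1138 in M2 (3.22), and the decoy receptor IL1R2 had 12591 in M0, 2381 in M1 and 11222 in M2 (2.24). Agonists, antagonist, receptor and decoy were thus all lower in M1 than in either other group.

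IL18, an IL-1 family cytokine that drives IFN-γ production, did not follow them and had 5997 in M0, 9118 in M1 and 9161 in M2 (0.01). IL10, which restrains macrophage activation, had 2811 in M0, 951 in M1 and 3466 in M2 (1.86). On the M1 side stood IL21R, with 143 in M0, 1652 in M1 and 52 in M2 (-4.96), and IL31RA, the receptor of the itch cytokine IL-31, with 671 in M0, 3807 in M1 and 128 in M2 (-4.89). IL27, a regulator of T cells, had 173 in M0, 1096 in M1 and 147 in M2 (-2.89), and IL7R, the IL-7 receptor chain, had 3646 in M0, 5263 in M1 and 1802 in M2 (-1.55). IL6 had 234 in M0, 990.2 in M1 and 464 in M2 (-1.09), within the fold.

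**Figure D5:**
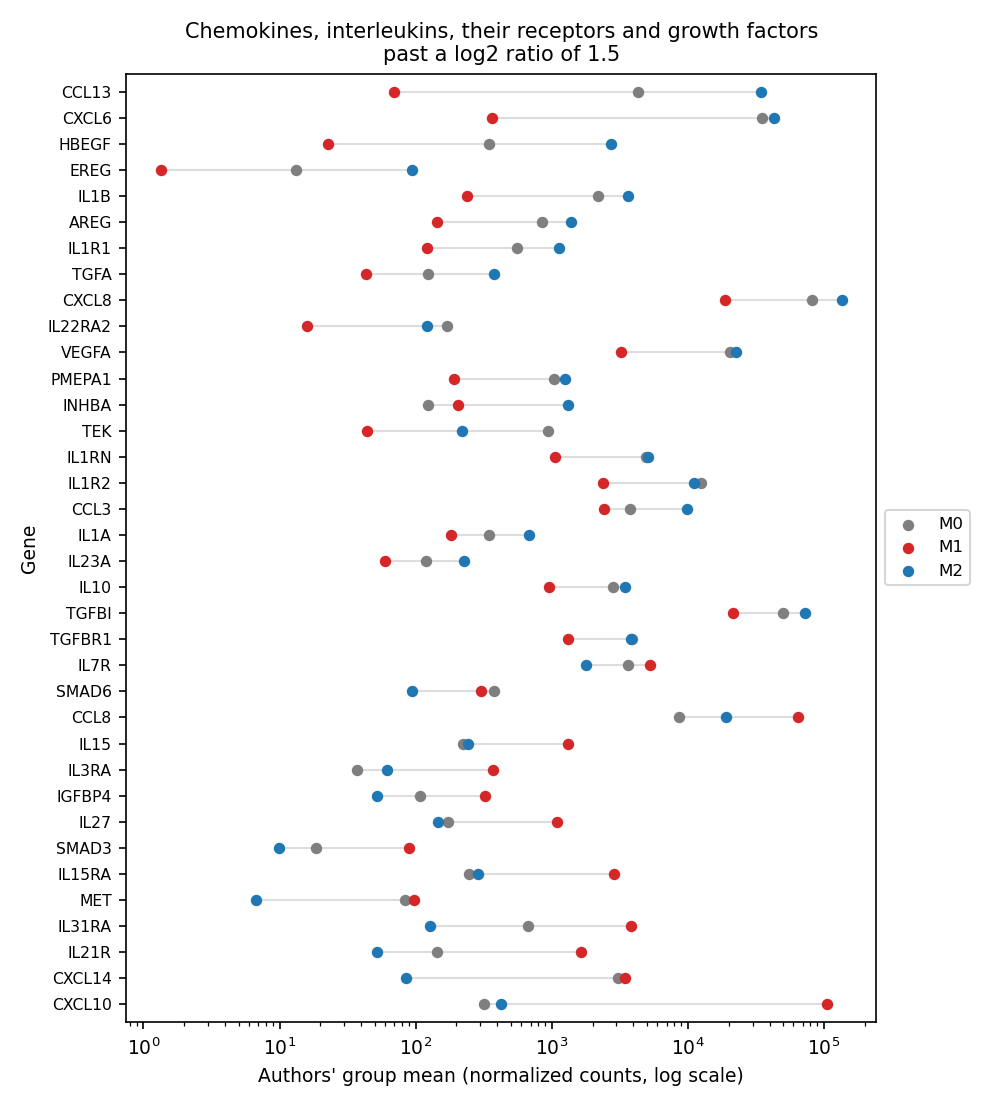
The authors' mean in M0 (grey), M1 (red) and M2 (blue) is drawn for the chemokine, interleukin, receptor and growth factor genes past a log2 ratio of 1.5, in normalized counts on a log scale, ordered by ratio from CXCL10 to CCL13. Among the genes higher in M2, M1 has the lowest mean in all but INHBA, and for IL1RN, VEGFA and TGFBR1 the M0 and M2 points nearly coincide.

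Of the TNF superfamily and NF-κB genes, 4 of 29 were higher in M1 past the fold and 0 in M2, with a median of -0.34. TNFSF10, the death ligand TRAIL, had 3230.3 in M0, 16529 in M1 and 1705 in M2 (-3.28), and TNFSF13B, the B cell factor BAFF, had 549 in M0, 2388 in M1 and 299 in M2 (-2.99). TNF had 295 in M0, 1412 in M1 and 742 in M2 (-0.93), within the fold, and its receptor TNFRSF1A had 5990.0 in M0, 7084 in M1 and 4582 in M2 (-0.63). TNFSF13 (APRIL, 0.84) and TNFSF15 (1.09) were higher in M2 within the fold.

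Costimulatory genes differed by ligand, with 3 of 24 higher in M2 and 2 in M1 past the fold, against 3.92% and 3.04% of all genes. CD40, which T cells engage through CD40 ligand, had 1888 in M0, 12306 in M1 and 2406 in M2 (-2.35), and CD274, the checkpoint ligand PD-L1, had 1129 in M0, 8667 in M1 and 1800.2 in M2 (-2.27). CD86, a ligand of CD28, had 25068 in M0, 11926 in M1 and 11955 in M2 (0.00), so that both polarized groups were below M0 to the same degree. CD84, a SLAM receptor, had 985 in M0, 549.8 in M1 and 4322 in M2 (2.97).

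CD28 itself, the costimulatory receptor of T cells, had 77.4 in M0, 2052 in M1 and 26.7 in M2 (-6.21), and CD2, an adhesion receptor of T cells, had 1253 in M0, 5032 in M1 and 919 in M2 (-2.45). The other T cell markers did not share this direction: CD3E had 92.8 in M0, 88.8 in M1 and 162 in M2 (0.86), CD3D had 14.7 in M1 and 33.7 in M2, CD3G had 21.6 and 37.9, and LCK had 87.6 and 87.7. CD4, which human macrophages also carry, had 4325 in M0, 918 in M1 and 5565 in M2 (2.60). Of the 14 T cell markers analysed here, 2 were higher in M1 and 1 in M2 past the fold, and their summed mean was 8512 in M1 and 7246 in M2. The part of T cells in the CD28 and CD2 values was not tested.

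Matrix genes leaned toward M2, with 13 of 39 higher in M2 past the fold and 2 in M1, and a median of 0.87. VCAN, the proteoglycan versican, had 1906 in M0, 297 in M1 and 11454 in M2 (5.27). MMP1, interstitial collagenase, had 566 in M0, 137 in M1 and 3773 in M2 (4.77). TGFBI, a matrix protein that TGF-beta induces, had 50250.3 in M0, 21621 in M1 and 73304 in M2 (1.76). The exceptions were the gelatinase MMP2, with 12.5 in M0, 74.7 in M1 and 4.13 in M2 (-3.88), and the inhibitor TIMP4, with 8.86 in M0, 332 in M1 and 17.3 in M2 (-4.19), both at low levels.

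Several ligands of the EGF receptor were among the growth factors higher in M2. In that list 10 of 28 genes were higher in M2 past the fold and 4 in M1. Besides HBEGF, AREG had 845 in M0, 143 in M1 and 1384 in M2 (3.26), TGFA had 123 in M0, 43.5 in M1 and 376 in M2 (3.08), and EREG had 13.1 in M0, 1.33 in M1 and 94.2 in M2 (5.35). VEGFA, the main angiogenic factor, had 20324 in M0, 3215 in M1 and 22544 in M2 (2.81), while VEGFB (-0.31) and VEGFC (-0.03) differed little. INHBA, which encodes activin A, had 123 in M0, 206 in M1 and 1319 in M2 (2.67). MET, the receptor of hepatocyte growth factor, had 84.3 in M0, 97.2 in M1 and 6.73 in M2 (-3.67), and SMAD3, a transducer of TGF-beta, had 18.6 in M0, 89.9 in M1 and 9.96 in M2 (-3.05).

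Genes of energy metabolism differed by list. In the glycolysis and hypoxia list, 4 of 34 genes were higher in M2 and 2 in M1 past the fold. The shares over all genes were 3.92% and 3.04%, and the median of the list was 0.20. EPAS1 (HIF-2alpha) had 146 in M0, 117 in M1 and 651 in M2 (2.47), the glucose transporter SLC2A6 had 708 in M0, 5049 in M1 and 690.2 in M2 (-2.87), and the peptide hormone ADM had 31.4 in M0, 139.8 in M1 and 12.2 in M2 (-3.41). For the respiratory chain and ATP synthase, 0 of 47 genes were past the fold in either direction, 40 were below 0, and the median was -0.32. SDHB, a subunit of succinate dehydrogenase, was the lowest, with 569 in M0, 1898 in M1 and 755 in M2 (-1.33).

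ACOD1, the enzyme that makes itaconate, had 940.3 in M0, 7459.6 in M1 and 407 in M2 (-4.19). In its list of lipid mediator and lipid genes, 5 of 30 were higher in M1 past the fold and 2 in M2. The prostaglandin E2 receptors differed in direction, PTGER2 with 1123 in M0, 3368 in M1 and 251 in M2 (-3.74) and PTGER4, within the fold, with 6055 in M0, 3700.1 in M1 and 9265 in M2 (1.32). ABCG1, a cholesterol exporter, had 843 in M0, 322 in M1 and 2299 in M2 (2.83), whereas the NR1H3 mean was higher in M1. Genes of cholesterol and fatty acid synthesis had 0 of 28 past the fold and a median of -0.07, with INSIG1 (-1.36) the lowest and PMVK (0.80) the highest.

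For the genes of killing and clearance, the counts past the fold stand beside 3.92% higher in M2 and 3.04% higher in M1 over all genes. The respiratory burst, nitric oxide and arginine list holds 29 genes, of which 17 had values and 14 reached the minimum. Of these 14 genes 0 were past the fold, and the count says nothing about the genes not compared. CYBB, the catalytic subunit of the phagocyte oxidase, had 22534 in M0, 20055 in M1 and 10332 in M2 (-0.96). ARG2, the mitochondrial arginase, had 1459 in M0, 534 in M1 and 1117 in M2 (1.06). Of 39 lysosome genes 1 was past the fold, ATP6V0D2 (1.70), a proton pump subunit that was higher in M2. Of 22 Toll-like receptor genes 2 were higher in M1, TLR6 (-2.19) and the adaptor TICAM2 (-1.55), and TLR4, the receptor of LPS, had 7336 in M0, 7793 in M1 and 4925 in M2 (-0.66).

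Cell death genes had 6 of 34 higher in M1 and 3 in M2 past the fold. NINJ1, which ruptures the membrane of dying cells, had 1524 in M0, 10057 in M1 and 1988 in M2 (-2.34), and BCL2L14, a BCL2 family member, had 103 in M0, 1945 in M1 and 71.9 in M2 (-4.74). PYCARD, the inflammasome adaptor, had 2859 in M0, 7923 in M1 and 2387 in M2 (-1.73), while the sensor NLRP3 had nearly equal means in M1 and M2 (0.01). MEFV (pyrin) had 2781 in M0, 604 in M1 and 2274 in M2 (1.91).

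Few adhesion genes were past the fold, 1 of 31 higher in M1 and 3 in M2, against 3.04% and 3.92% of all genes. The 1 higher in M1 was ITGAL, the alpha chain of LFA-1, with 6565 in M0, 16216 in M1 and 5247 in M2 (-1.63). Those higher in M2 included CDH1, E-cadherin, with 29.1 in M0, 25.3 in M1 and 351 in M2 (3.74). The tetraspanin CD9 was another, with 3129 in M0, 1511 in M1 and 8549 in M2 (2.50). In the dendritic cell list, 4 of 16 genes were higher in M2 (CD1C, IRF4, FCER1A and CLEC10A) and 2 in M1 (IDO1 and BIRC3). Of 32 cell cycle genes, CCND1 (-1.57) alone was past the fold, and of 53 ribosomal protein genes 0 were.

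Markers of the macrophage lineage were abundant in both groups. Of 17 such genes, CSF1R, the M-CSF receptor, had 63804 in M0, 28337.5 in M1 and 53353 in M2 (0.91) and CD68 had 12144 in M0, 8990.0 in M1 and 11956 in M2 (0.41), while CD163 was higher in M2 and C1QA, C1QB and C1QC higher in M1 past the fold. All 9 natural killer cell markers analysed here were below 50 in both groups. Of the 6 B cell markers above the minimum, 0 were past the fold, and CD79A, a chain of the B cell receptor, had 10511 in M0, 9856 in M1 and 12039 in M2 (0.29). Fibroblast, endothelial, epithelial, platelet and erythroid markers each summed to at most 1395 in any group, with PDGFRB (-1.54) higher in M1 and TEK (2.31), VWF (1.92) and CDH1 higher in M2. TEK (43.9 in M1 and 221 in M2), VWF (14.7 and 58.7) and CDH1 passed the minimum mean of 50 through M2 alone. The 6 neutrophil markers analysed here summed to 186065 in M1 and 388381 in M2, against 282918 in M0. Most of each sum was MMP9 alone, with 176164 in M1, 370943 in M2 and 261762 in M0. Among these markers CSF3R, the G-CSF receptor, was higher in M1 past the fold, with 664 in M0, 376 in M1 and 92.9 in M2. LTF (-1.20) lay toward M1 within the fold. MMP9 (1.07) and the calprotectin subunit S100A8 (0.88), which macrophages also make, lay toward M2 within it. LCN2 and S100A12 were below 50 in M1 and M2.

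A list of genes that the study names for these groups, which does not hold every gene it names, had 26 genes compared here, of which 11 were higher in M2 and 10 in M1 past the fold. Those not yet given were A4GALT, a glycolipid galactosyltransferase, with 3209 in M0, 1615 in M1 and 9157 in M2 (2.50), and NIBAN1, a stress response gene, with 4630.0 in M0, 3375 in M1 and 14559 in M2 (2.11). The 5 within the fold were CD86, SOCS1, STAT3, TNF and TNFRSF1A. These genes were chosen on these samples, so their counts are a description.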

How the data were processed

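Filtered reads were mapped by the authors to the dog assembly CanFam3.1 with STAR 2.7.3a (Partek Flow 7.0) and assigned to genes with HTSeq. The authors normalized the counts with DESeq2 and kept protein coding genes. The deposited signal values used here are least squares means of these normalized counts, fitted by the authors for each group, 1 for M0, M1 and M2 each. A normalized mean does not give the depth of a library, which is unknown here, and carries no error. The deposited table also holds p-values, FDRs, ratios, log2 ratios and fold changes of the authors' own comparisons, and the other 3 files hold the authors' log2 ratios of 50 genes each. None of these were used.

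Log2 ratios of group means were computed with a pseudocount of 1 in Python 3.11.15 (numpy 2.4.6, pandas 2.3.3, matplotlib 3.10.9), over genes with a mean of at least 50 in M1 or M2, and called at 1.5 in size. For a gene that passed this minimum through 1 group alone, the filter fixed the direction of the ratio but not its size. This holds for 380 genes that passed through M2 and 184 through M1, of which 157 and 74 were past the fold. The computation was tested on simulated data. Gene lists (31 for pathways, 11 for cell type markers and 1 of genes the study names for these groups, not complete) were described by their counts and median. The comparison and the lists were chosen with earlier results of these data known. Named genes were the 15 with the largest ratio and the 10 with the largest difference in each direction, up to 4 of a list (2 in each direction) and those of the list of study-named genes. Other genes in the text were chosen after their values were seen, and not every gene picked by this rule is reported. Alternatives were other pseudocounts, minimum means, fold thresholds and scalings. A planned search for motifs in promoters was not run, as promoter sequences were not used here. The order of genes on chromosomes was taken from RefSeq's UU_Cfam_GSD_1.0 annotation, another build than that of the files, so no coordinates are given.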

Additional observations from a re-analysis of the deposited data

How the results depend on the processing

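The count of genes higher in M2 was 748 at a log2 threshold of 1 and 269 at a threshold of 2, against 421 at 1.5, and the count of genes higher in M1 was 612 and 187, against 326. Under the other alternatives (no pseudocount, a pseudocount of 10, minimum means of 10 and 200, no minimum, means rescaled to equal totals, ratios centred on their median) the counts lay between 303 and 542 for M2 and between 274 and 373 for M1. The total of M2 was -0.04 on the log2 scale relative to M1, and no scaling moved a named gene or a list's median by more than 0.04. A pseudocount of 10 moved 27 of 171 named genes by more than 0.25, by at most 2.15, and leaving the pseudocount out moved 7, by at most 0.79. No named gene changed direction under these pseudocounts and scalings, and of the list medians 1, of MHC class II genes, changed sign, from -0.00 to 0.03 with means rescaled to equal totals. No paired analysis was possible because only group means were used, although the labels share replicate numbers across groups. For the same reason no replicate could be left out, and the promoter motif alternative was not run. Of the genes past the fold, 157 of those higher in M2 and 74 of those higher in M1 had a mean under 50 in the other group, where the ratio is least precise.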

Other observations

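Genes past the fold toward M2 were more frequent at both extremes of level, and those toward M1 mainly at the highest levels. Among genes whose higher mean was at least 10000 normalized counts, 8.25% of 485 genes were higher in M2 and 11.1% higher in M1. Among those between 50 and 200, 6.78% of 1740 genes were higher in M2 and 2.99% in M1, a range in which the minimum mean of 50 admits genes through 1 group alone. Between 200 and 1000 the shares were 2.78% and 2.17%, and between 1000 and 10000 they were 3.36% and 2.94%.

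Some genes past the fold were neighbours in the chromosome order of the genes compared here. This order held only the 9374 genes placed by symbol, so other genes can lie between such neighbours. Of its 9334 neighbouring pairs, 39 pairs were both higher in M2 and 28 both higher in M1. Over all genes compared, 3.92% were higher in M2 and 3.04% in M1. The number of pairs to be had from these shares was not computed. There were 6 runs of at least 3 such neighbours. Toward M2, these were IL18RAP with IL1R1 and IL1R2, IL1A with IL1B and IL1RN, and RXRG with NUF2 and RGS4. In the first of these, IL18RAP, a chain of the IL-18 receptor, had means of 98.9 in M0, 13.5 in M1 and 106 in M2 (log2 ratio 2.89). In the last, RXRG, NUF2 and RGS4 had means of 49.8, 20.1 and 3.99 in M1 and 156, 63.9 and 53.6 in M2. IL18RAP, RXRG, NUF2 and RGS4 passed the minimum mean of 50 through M2 alone, so the filter fixed their direction but not its size.

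Toward M1, the runs were the 3 C1q genes, CD69 with CLEC2B and CLEC12A, and P2RY14 with P2RY13 and IGSF10. The lymphocyte activation marker CD69 had 14.9 in M0, 219 in M1 and 24.5 in M2 (-3.11), and CLEC2B, a C-type lectin of the same family, had 80.0 in M0, 258 in M1 and 66.2 in M2 (-1.95). The purinergic receptor P2RY14, which binds UDP-glucose, had 41.5 in M0, 374 in M1 and 13 in M2 (-4.74), and P2RY13, which binds ADP, had 58.8, 220.4 and 36.7 (-2.55). These neighbours were found after their values were seen.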
